A study of Mus musculus with 15 samples.

Results

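Trimethylated lysine 4 of histone H3 (H3K4me3) usually lies beside RNA polymerase II (Pol2), and the regions described here are those where it did not. They are the H3K4me3 peaks of control αTN4 cells with no Pol2 peak of the same cells within 1 kb, counted between the nearest edges. The rule selected 1233 of 14869 H3K4me3 peaks (8.29%), and the other 13636 peaks, which had Pol2 within 1 kb, are the comparison throughout. The peaks were chosen by the H3K4me3 and Pol2 lists, so their number and their distance from Pol2 are descriptions and not findings.

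The study used ChIP-seq of histone marks, Pol2 and Pax6, a paired and homeodomain transcription factor of eye development, to relate Pax6 binding to methylation of H3K4 in lens chromatin. αTN4 is an epithelial cell line of mouse lens that carries the SV40 T antigen. The control cells carry a lentiviral control shRNA, and the Pax6 KD cells a lentiviral shRNA against Pax6; both stable lines were selected with puromycin for 14 days and kept in it. The lens sample is dissected lens of CD-1 mice at postnatal day 1, and the pooling of animals is not given in its labels. All the cells compared between control and KD are 1 transformed line, and each mark was measured in 1 library per condition, so no replicate error can be given and no p-value is printed. Intervals are 95% Wilson intervals of shares and Newcombe intervals of differences, in percentage points, and cover counting error only, since peaks of 1 library are not replicates. Read totals of the MACS2 libraries are not in the lists, so their depth is unknown. The antibody fields of the Pol2 and Pax6 libraries name each other's antibody, and titles decided which library is which. The list titled Pol2 overlapped 12585 of the H3K4me3 peaks (84.6%), whereas the list titled Pax6 overlapped 1 peak without Pol2 and 34 peaks with Pol2. H3K4me3 lay at a start of 10 of 11 lens lineage factors (90.9%) and of 2 of 16 crystallin genes (12.5%). The share over all protein-coding genes was 48.7%, which lies between them, so these counts do not settle the cell type.

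H3K4me3 is written by SET1 and MLL complexes at the starts of genes, in particular at starts rich in CpG dinucleotides, where subunits of these complexes bind unmethylated CpG. Many developmental genes carry it while silent or poised, together with repressive marks that were not measured here. Dimethylated H3K4 (H3K4me2) covers promoters and enhancers, and monomethylated H3K4 (H3K4me1) is typical of enhancers. Genes for transfer RNAs (tRNAs) are transcribed by RNA polymerase III and not by Pol2, from promoter elements inside the gene, one of which is called the B box, and H3K4me3 is known to lie beside active tRNA genes.

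Sequences of both kinds of place are shown first, from the mm9 reference (NCBIM37). The pair that follows is the 200 bp around the summit of H3K4me3 at Braf (chr6:39674809-39675008, plus strand) and at Rab12 (chr17:66868444-66868643, plus strand), which are among the strongest peaks without Pol2 at starts of protein-coding genes, with every CpG in capitals.
Braf: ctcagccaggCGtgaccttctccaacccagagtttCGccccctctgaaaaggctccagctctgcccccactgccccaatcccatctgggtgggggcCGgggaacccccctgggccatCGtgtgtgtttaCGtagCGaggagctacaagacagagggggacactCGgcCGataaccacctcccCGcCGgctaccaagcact
Rab12: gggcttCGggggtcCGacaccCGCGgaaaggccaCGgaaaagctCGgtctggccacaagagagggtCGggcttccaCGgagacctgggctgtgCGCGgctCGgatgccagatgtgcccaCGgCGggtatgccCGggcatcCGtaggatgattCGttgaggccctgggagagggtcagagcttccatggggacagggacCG

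The next 3 sequences lie beside peaks without Pol2 that are far from any annotated start. Each is 90 bases long and ends shortly after the letters of a B box, which are in capitals: GGTTCGA, then any base, then TCC. They lie at chr1:172968747-172968836 on the plus strand, chr13:22113004-22113093 on the minus strand and chr11:68850980-68851069 on the plus strand, and the middle of the letters lies 77, 73 and 72 bp outside the nearest edge of the H3K4me3 peak. They are shown because such letters lay beside 24 of the 71 far peaks without Pol2 that had a fold enrichment over 10.
near Fcgr4: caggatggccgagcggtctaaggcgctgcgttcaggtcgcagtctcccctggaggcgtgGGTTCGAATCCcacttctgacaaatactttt
near Prss16: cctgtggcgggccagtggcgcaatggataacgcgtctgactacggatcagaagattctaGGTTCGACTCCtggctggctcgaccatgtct
near Aurkb: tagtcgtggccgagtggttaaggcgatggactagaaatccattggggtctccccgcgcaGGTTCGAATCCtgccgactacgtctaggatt

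Most of the selected peaks were far from Pol2 and not at the edge of the rule. Of the 1233, 267 had the nearest Pol2 peak at over 1 and up to 5 kb, 433 at over 5 and up to 50 kb, and 533 farther than 50 kb, with a median of 36158 bp. Among the peaks that were not selected, 1051 had Pol2 within 1 kb without an overlap. The peaks just inside the rule lay in Qk (1003 bp from Pol2, H3K4me3 fold enrichment 5.07), at 4931440P22Rik (1006 bp, 7.55) and at Ctdspl (1007 bp, 14.0). Those just outside lay in Epb4.1l2 (999 bp, 8.68), Vps54 (986 bp, 6.42) and Vegfc (985 bp, 5.63). Of the selected peaks, 236 (19.1%) lay within 5 kb of an H3K4me3 peak that had Pol2.

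H3K4me3 without Pol2 was weaker and narrower than H3K4me3 with Pol2. Fold enrichment, the ratio over background that MACS2 gives each peak, had a median of 7.55 with quartiles of 5.66 and 11.7, against a median of 18.5 with quartiles of 10.5 and 27.5 for the peaks with Pol2. When the whole list was divided into 4 equal parts by fold enrichment, the weakest part held 796 peaks without Pol2 (21.4% of that part), the next held 306 (8.23%), the third 104 (2.80%) and the strongest 27 (0.726%). The median width was 463 bp, with quartiles of 315 and 720 bp, against 905 bp with quartiles of 567 and 1300 bp. Width followed strength: within the weakest part the median widths were 356.5 and 365 bp without and with Pol2, and in the strongest part 1123 and 1324 bp. These measures come from the library that the rule used and describe the selection. Because of this difference, the main shares below are also given by quartile of fold enrichment or among peaks over or under a fold enrichment of 10. A region marked weakly in all cells and one marked in few cells cannot be told apart in these data.

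**Figure D1:**
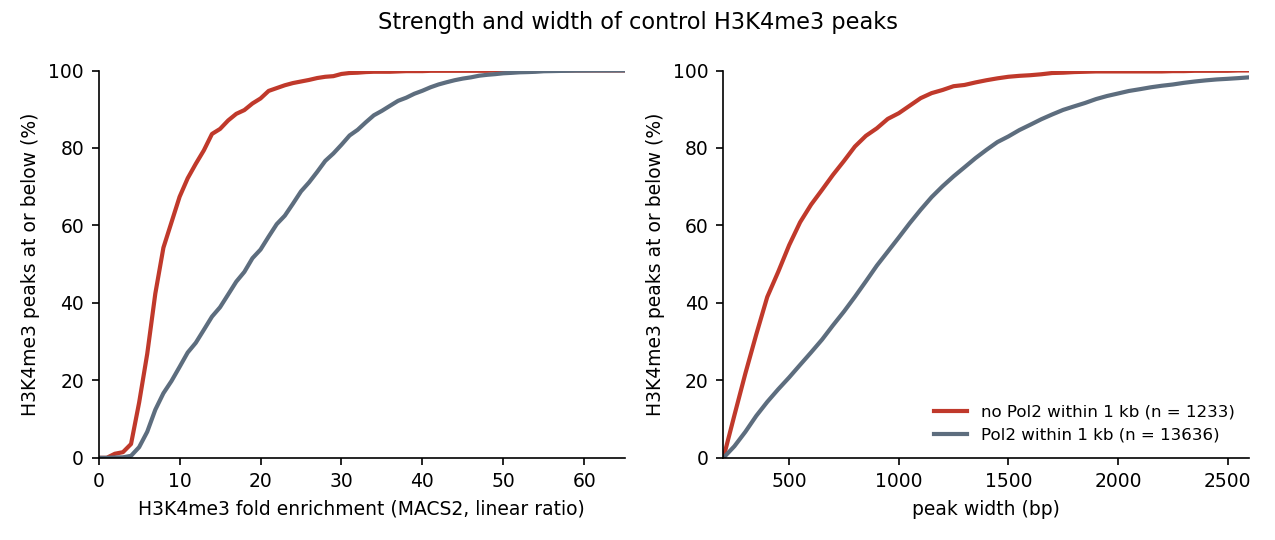
Cumulative share of control H3K4me3 peaks (percent, vertical axes) by fold enrichment (left, linear ratio from MACS2) and by width in bp (right), for peaks without (red) and with (grey) Pol2 within 1 kb. The red curves lie to the left of the grey ones, with medians of 7.55 against 18.5 in fold enrichment and 463 against 905 bp in width.

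Most H3K4me3 peaks without Pol2 still lay at gene starts, but a larger share lay away from them than among peaks with Pol2. A protein-coding start of GENCODE vM1 lay within 2 kb of 831 peaks (67.4%, interval 64.7 to 70.0), against 92.1% of peaks with Pol2, a difference of -24.7 points (-27.4 to -22.1). By quartile of fold enrichment, from the weakest, the share near a protein-coding start was 61.9%, 74.5%, 80.8% and 96.3% without Pol2 and 81.7%, 91.0%, 95.4% and 98.0% with Pol2. Among peaks of the first quartile that had no other H3K4me3 peak within 1 kb, the shares were 60.9% and 63.5%, and the interval of the difference, -7.88 to 2.59 points, includes no difference; for such isolated peaks of the second quartile they were 75.9% and 88.4% (-18.8 to -7.10 points). A start of another annotated transcript was the only start within 2 kb of 83 peaks (6.73%), against 2.53%. No annotated start lay within 2 kb of 319 peaks (25.9%, interval 23.5 to 28.4), against 5.40%. The annotation holds 0 nuclear tRNA genes, so a peak at a tRNA gene counts as far from starts unless another start is near. A protein-coding start fell inside 22.0% of the peaks without Pol2 and inside 52.0% of those with it. The summit was intergenic in 25.1% against 16.8%, and 81 peaks (6.57%) had no protein-coding start within 50 kb, against 1.69%. The 83 peaks at other starts were at pseudogenes in 28 cases, at non-coding transcripts of protein-coding genes in 22, at long intergenic non-coding RNAs (lincRNAs) in 17, at processed transcripts in 10, at microRNAs in 5 and at 1 further small RNA. Among peaks within 1 kb of a protein-coding start, the summit lay downstream of the start in 76.7% of 750 peaks without Pol2 (73.5 to 79.6) and in 77.3% of those with Pol2, at a median of 240.5 bp and 250 bp.

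**Figure D2:**
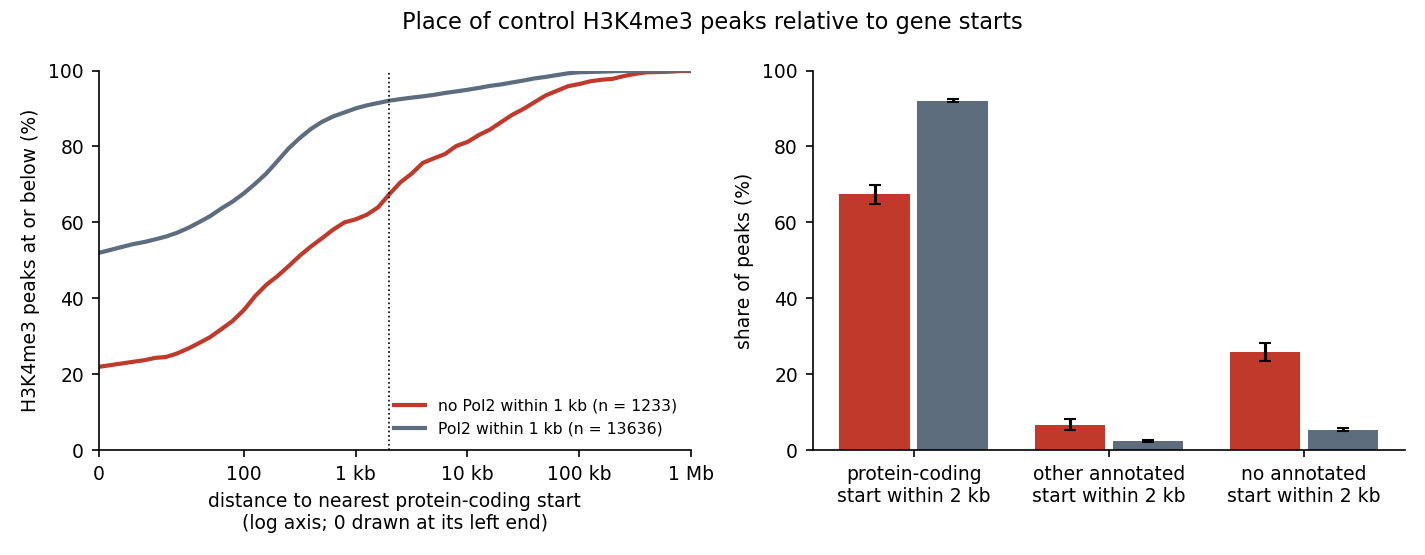
Left, cumulative share of peaks (percent) by distance to the nearest protein-coding start on a log axis, with peaks that contain a start drawn at the left end and a dotted line at 2 kb. Right, share of peaks by place (percent, bars) with 95% Wilson intervals, for peaks without (red) and with (grey) Pol2 within 1 kb; 25.9% of the red and 5.40% of the grey peaks have no annotated start within 2 kb.

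Among peaks without Pol2 at protein-coding starts, the 10 with the highest fold enrichment ran from 30.9 to 48.8. Braf, a kinase of the MAP kinase pathway, had the highest value in a peak at chr6:39674076-39675256 that covered a start, and the nearest Pol2 peak was 85.3 kb away. In Pax6 KD cells the Braf peak had a fold enrichment of 21.3 in its own list, and overlapping H3K4me2 peaks had fold enrichments of 24.7 in control cells and 23.8 in newborn lens. As percentiles of each list, the Braf peak stood at 99.1 in control H3K4me3 and at 83.1 in KD H3K4me3. Suds3, a subunit of the SIN3 deacetylase corepressor, had a fold enrichment of 40.8 with Pol2 3.79 kb away, and stood at percentile 95.8 in the control list and 87.7 in the KD list. Rab12, a small GTPase of membrane traffic, had 38.0 with Pol2 68.2 kb away, and stood at percentile 93.5 and 96.2 in these lists. Adrbk1, a kinase of G protein coupled receptors, had 37.0 with Pol2 22.0 kb away, at percentile 92.7 and 81.9. These peaks thus stood at percentile 92.7 or higher in the control list, and at 81.9 or higher in the KD list. Plcl2, which is related to phospholipase C, had 33.1 with Pol2 as far as 667.5 kb away. Tada2b, an adaptor of the SAGA acetyltransferase complex, and Rassf3, a Ras association domain protein, had 32.1 each, with Pol2 17.8 and 109.6 kb away. Neurl1b, a ubiquitin ligase of the Notch pathway, had 31.9, and Itga6, the integrin α6 subunit that binds laminin, and Tcp11l2 had 30.9 each. All 10 overlapped H3K4me3 in KD cells and H3K4me2 in both control cells and lens. So did nearly every peak of the strongest quartile. With Pol2 the shares there were 100% for KD H3K4me3 and 99.9% for each H3K4me2 list. Neurl1b stood higher in the KD list (percentile 97.4) than in the control list (85.9), while Tada2b stood at 56.6 in the KD list and 86.2 in the control list.

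The widest peak without Pol2 covered 2528 bp in Smcr8, a gene of autophagy regulation, 1.67 kb from Pol2 and with a fold enrichment of only 9.86. The next, of 2326 bp, covered a start of Axin2, an inhibitor of Wnt signalling, with a fold enrichment of 19.2 and Pol2 89.1 kb away. Wide peaks also lay at Plxna1, a semaphorin receptor (1858 bp), at Tll1, an extracellular protease (1816 bp), at Tcf7, a nuclear factor of the Wnt pathway (1782 bp), and at Dach1, a transcription cofactor of eye and limb development (1743 bp). At Tll1 and Dach1 the nearest Pol2 peak was 486.1 and 841.2 kb away. Each of these 6 wide peaks overlapped KD H3K4me3 and lens H3K4me2. The 10 widest also included peaks at Btn1a1 (2204 bp), near Gpx5 (1785 bp), near Olfr1368 (1670 bp) and at Ammecr1 (1665 bp), which overlapped both lists as well. Over a fold enrichment of 10, 98.0% of peaks without Pol2 overlapped KD H3K4me3 and 99.5% lens H3K4me2. With Pol2 it was 99.9% and 99.6%. Those at Btn1a1, Gpx5 and Olfr1368 lay on chromosome 13 between 21 and 24 Mb and had B box letters within 500 bp.

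Counted by gene, 670 protein-coding genes had a peak without Pol2 within 1 kb of a start, and at 599 of them all H3K4me3 peaks at starts lacked Pol2. The 599 were 5.54% of the 10821 genes with H3K4me3 at a start, and the lists that follow are read against this share. Of the remaining genes, 71 also had a peak with Pol2 at a start.

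Genes of embryonic development took a larger share than genes of ribosomes, proteasomes and mitochondria. Across 5 developmental lists (HOX clusters, other homeobox factors, SOX, FOX, PAX, TBX and GATA factors, basic helix-loop-helix lineage factors, and ligands of the WNT, BMP/GDF, FGF and Hedgehog families), 113 of 373 genes had H3K4me3 at a start and 26 of these 113 lacked Pol2 there (23.0%, interval 16.2 to 31.6). Across the lists of cytosolic ribosomal proteins, proteasome subunits and the mitochondrial ribosome with respiratory complex I, 228 of 235 genes had H3K4me3 and 2 lacked Pol2 (0.877%, interval 0.241 to 3.14). Strength differed between the lists. Among genes whose strongest peak at a start had a fold enrichment over 10, 11 of 84 developmental genes (13.1%, interval 7.47 to 21.9) lacked Pol2. Of the other 3 lists 2 of 226 genes did (0.885%, interval 0.243 to 3.17), an interval that includes the 2.81% of all genes. Up to a fold enrichment of 10 it was 15 of 29 developmental genes (51.7%, interval 34.4 to 68.6) and 30.8% of all genes, with only 2 genes of the other lists to compare. Developmental genes without Pol2 were still few in number, so that most of the 599 genes were not in any of these lists. The lists were described by counts only, and genes that share a start are not independent.

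The ligands had the highest share, with 8 of 14 genes (57.1%, interval 32.6 to 78.6), namely Wnt7a, Wnt4, Wnt16, Wnt7b, Gdf11, Fgf15, Fgf9 and Inhba. At Wnt7a and Gdf11 the fold enrichment was over 10. At Fgf15 it was 9.81, at Wnt4 8.30, and at the remaining ligands no higher. The share over all genes was 2.81% over a fold enrichment of 10 and 30.8% up to it. The Wnt7a peak had a control fold enrichment of 18.9 and stood at percentile 54.3 in the control list and 27.6 in the KD list. Gdf11, a TGF-β family ligand of axial patterning, stood at 42.0 and 47.2, and Fgf15, an endocrine and neural FGF, at 26.6 and 10.7. Their nearest Pol2 peaks were 29.1, 17.7 and 18.7 kb away.

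Of 33 homeobox genes outside the HOX clusters with H3K4me3, 8 lacked Pol2 (24.2%, interval 12.8 to 41.0), among them Lhx4, Pou6f1, Pitx3 and Meox2. Pitx3, which is needed for the formation of the lens, had a peak of 693 bp over a start (chr19:46222330-46223022) with a fold enrichment of 12.1 and Pol2 3.83 kb away. The Pitx3 peak overlapped KD H3K4me3 (fold enrichment 8.86), control H3K4me2 (29.3, percentile 99.8) and lens H3K4me2 (22.5, percentile 84.3). Pitx3 was the only one of the 10 lens lineage factors with H3K4me3 whose start had no Pol2 (10%, interval 1.79 to 40.4). That interval includes the 5.54% of all genes. Pax6 itself had 9 H3K4me3 peaks near starts, 1 of which lacked Pol2. Lhx4, a LIM homeodomain factor of pituitary and motor neurons, stood at percentile 46.5 in the control list and 16.1 in the KD list. Meox2, a factor of somite and muscle development, stood at 30.4 and 25.0, with Pol2 726.3 kb away.

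Of 37 SOX, FOX, PAX, TBX and GATA genes with H3K4me3, 7 lacked Pol2 (18.9%, interval 9.48 to 34.2): Foxp1, Sox13, Tbx15, Foxo6, Sox5, Sox12 and Tbx2. Of 21 HOX genes only Hoxc8 and Hoxc10, which pattern the posterior body axis, did so (9.52%, interval 2.65 to 28.9), and of 8 helix-loop-helix genes Twist1, a factor of mesenchyme. The intervals of the HOX and helix-loop-helix lists include the share over all genes. Neither the Hoxc8 nor the Hoxc10 peak overlapped lens H3K4me2, while both overlapped H3K4me2 in control cells (fold enrichments 21.2 and 18.6). The Hoxc8 peak, with a control fold enrichment of 12.1, had no overlapping H3K4me3 peak in KD cells. The Twist1 peak, with a fold enrichment of 13.2, stood at percentile 37.6 in the control list and 51.9 in the KD list.

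Among potassium and calcium channel genes, 4 of 12 with H3K4me3 lacked Pol2 (33.3%, interval 13.8 to 60.9): Kcnh3, Cacna1g, Cacnb4 and Kcnab1, subunits of channels of excitable cells. Their fold enrichments were 13.3, 11.7, 7.55 and 7.54, and up to a fold enrichment of 10 the share over all genes was 30.8%. Of 8 neurotransmitter receptor genes with H3K4me3, Grik2, a kainate receptor subunit, lacked Pol2 (fold enrichment 4.53, not found in KD). The share was 12.5% (interval 2.24 to 47.1), which includes the 5.54% of all genes. No olfactory receptor gene of 1087 had H3K4me3 at a start. All 80 cytosolic ribosomal protein genes and all 36 proteasome genes with H3K4me3 had Pol2, as did both marked crystallin genes. The intervals of the share without Pol2 were 0 to 4.58%, 0 to 9.64% and 0 to 65.8%. Those of the proteasome and crystallin lists include the 5.54% of all genes. That of the ribosomal list includes the 2.81% of all genes over a fold enrichment of 10. The exceptions in the remaining lists were Mrpl11 and Mrpl19, proteins of the large subunit of the mitochondrial ribosome, with fold enrichments of 25.3 and 17.7 and Pol2 18.6 and 41.3 kb away, and Hist3h2ba, a histone H2B gene, of 62 clustered histone genes. These were 1.79% of 112 mitochondrial genes (interval 0.491 to 6.28) and 1.61% of the histone genes (0.285 to 8.59). Both intervals include 5.54%.

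**Figure D3:**
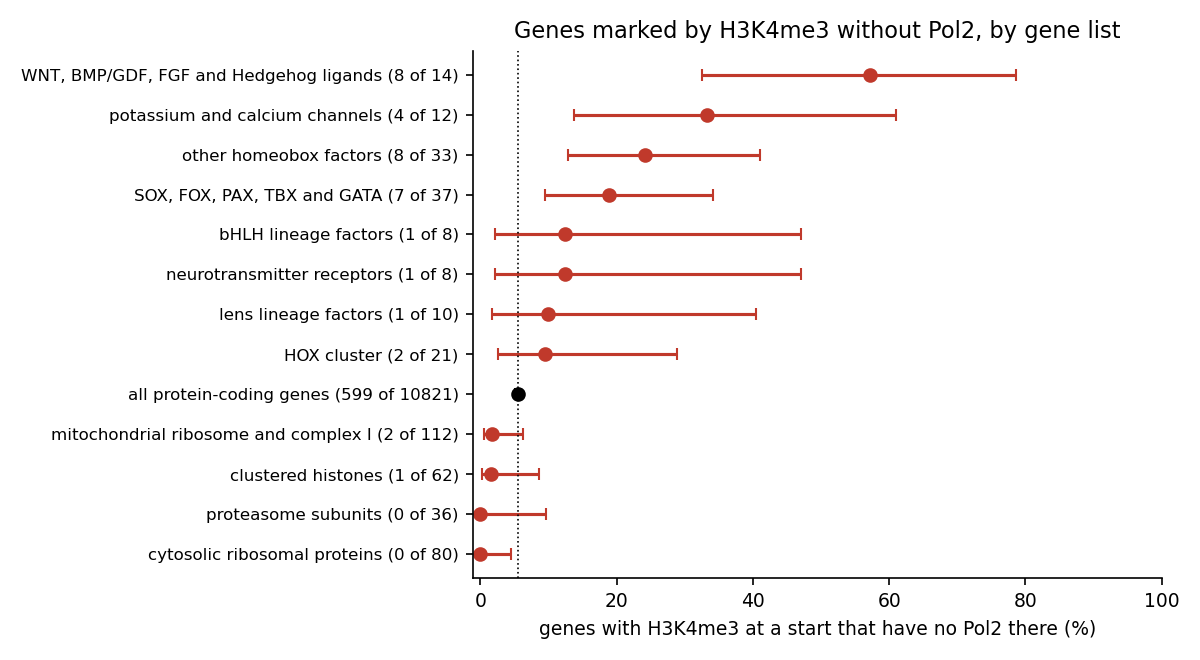
Share of genes with H3K4me3 at a start whose peaks there all lack Pol2 within 1 kb (percent, points) with 95% Wilson intervals, for gene lists with at least 8 marked genes; the counts stand beside the names. The black point and the dotted line mark all protein-coding genes (5.54%), and the ligands stand highest at 57.1%. All shares are over peaks of any fold enrichment, which differs between the lists.

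Far from annotated starts, strong peaks without Pol2 lay beside letters of a tRNA gene promoter more often than strong peaks with Pol2 did. Letters of a B box, searched on both strands up to 500 bp from the edges of a peak, were found at 34 of the 319 far peaks (10.7%, interval 7.73 to 14.5), against 28 of 736 far peaks with Pol2 (3.80%), a difference of 6.85 points (3.50 to 10.9). Without a stretch of chromosome 13 from 21 to 24 Mb, which held 18 of the 34, it was 16 of 277 (5.78%) against 3.04%, a difference of 2.73 points (0.0669 to 6.28). With a fold enrichment over 10, the counts were 24 of 71 (33.8%, interval 23.9 to 45.4) without Pol2 and 18 of 317 (5.68%) with Pol2, and without that stretch 11 of 48 (22.9%, interval 13.3 to 36.5) and 14 of 310 (4.52%). Up to a fold enrichment of 10 they were 10 of 248 (4.03%) and 10 of 419 (2.39%), with a difference of 1.65 points whose interval, -1.03 to 5.05, includes no difference. At protein-coding starts the letters were near 6 of 831 peaks without Pol2 (0.722%) and near 0.796% of those with Pol2. They occurred in 15 of 32851 RefSeq promoter windows of 300 bp (0.0457%), which are shorter than the windows searched here. In only 3 far peaks without Pol2 did the letters lie inside the peak, and in the others they lay outside its edges, as in the 3 sequences above. The motif was chosen after the data were seen, and a match of letters is not proof of a tRNA gene. Neighbouring peaks can share the same letters and were each counted.

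RefSeq tables of gene order, which have another build and were used for neighbours only, gave a second view. A far peak was placed between its nearest named neighbours, and a RefSeq tRNA gene lay between the same neighbours for 68 of 291 far peaks without Pol2 (23.4%, interval 18.9 to 28.6) and for 69 of 666 with Pol2 (10.4%). With a fold enrichment over 10 it was 37 of 65 (56.9%, interval 44.8 to 68.2) against 36 of 273 (13.2%). Without the stretch of chromosome 13 the shares were 10.4% and 8.73% over all far peaks, with a difference whose interval, -2.31 to 6.53 points, includes no difference, and 14 of 42 (33.3%) against 10.9% with a fold enrichment over 10, a difference of 22.4 points (9.38 to 37.9). All 32 far peaks without Pol2 that had the letters and matched neighbours had a tRNA gene in the interval. So did 24 of 28 such peaks with Pol2 (85.7%). Peaks between the same neighbours were each counted, as for those near Hfe2 and for those near Olfr1368 and Trim27. The intervals treat such peaks as independent, which they are not, and distances between neighbours were not compared. The strongest far peak, near Fcgr4, an Fc receptor gene of immune cells (chr1:172968237-172968734), had a fold enrichment of 30.9, stood at percentile 84.3 in the control list and 78.6 in the KD list, and lay 19.2 kb from the nearest protein-coding start. The peak near Aurkb, a mitotic kinase gene (chr11:68850577-68850972), had 20.9 in control and stood at percentile 60.1 and 58.4. The peak near Prss16, a thymus protease gene (chr13:22113102-22114229), had 22.3 and stood at 63.7 and 46.1. These 3 overlapped H3K4me2 in control cells and in lens. Of all far peaks without Pol2 over a fold enrichment of 10, 94.4% and 100% did so, against 99.1% and 98.4% with Pol2. Strong far peaks without the letters lay near Trim7 (fold enrichment 21.1) and near Abt1 (20.2), with 8 and 14 RefSeq tRNA genes between their neighbours, and near Shank2 (20.4), with 0.

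The stretch of chromosome 13 from 21 to 24 Mb held 49 of the 1233 peaks and 125 H3K4me3 peaks in all. It held 42 of the 319 far peaks without Pol2. The 42 had a median fold enrichment of 10.8. Chromosome 13 as a whole had 13.6% of its H3K4me3 peaks without Pol2, and the range over chromosomes was 6.08% on chromosome 7 to 14.2% on chromosome 18. Without the stretch, the share found in KD cells over all peaks was 61.4%, and the shares with lens H3K4me2, control H3K4me2 and H3K4me1 were 92.5%, 92.7% and 26.1%.

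In Pax6 KD cells, 766 of the 1233 peaks (62.1%, interval 59.4 to 64.8) overlapped an H3K4me3 peak, against 92.4% of peaks with Pol2, a difference of -30.2 points (-33.0 to -27.5). Over all 14869 peaks, 10.1% had no overlapping KD peak. Most of the 467 peaks that were not found were weak, with a median fold enrichment of 5.66 and a highest of 13.6, and at equal strength the gap was smaller. In the first decile of fold enrichment, the weakest, 26.2% of peaks without Pol2 and 50.1% of those with Pol2 were found in KD cells. In the second decile it was 52.7% and 67.7%, in the third 81.1% and 92.5%, and in the fourth 95.4% and 99.4%. In the 6 stronger deciles, every peak of either kind was found. Weak peaks with Pol2 were often neighbours of other H3K4me3 peaks: in the first quartile, 69.8% of them and 34.2% of those without Pol2 had another H3K4me3 peak within 1 kb. Among peaks of that quartile with no such neighbour, 212 of 524 without Pol2 (40.5%, interval 36.3 to 44.7) and 68.3% with Pol2 were found in KD cells. The difference was therefore present among isolated peaks as well, -27.8 points (-32.9 to -22.5). By place, 66.3% of peaks without Pol2 at protein-coding starts and 53.0% of the far ones were found, against 93.5% and 77.7% with Pol2. A change between the lines cannot be told apart from a difference between 2 libraries or their depth. Deciles and quartiles were cut by control values alone, so a fall back of uncertain control values in any second library was not separated either.

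**Figure D4:**
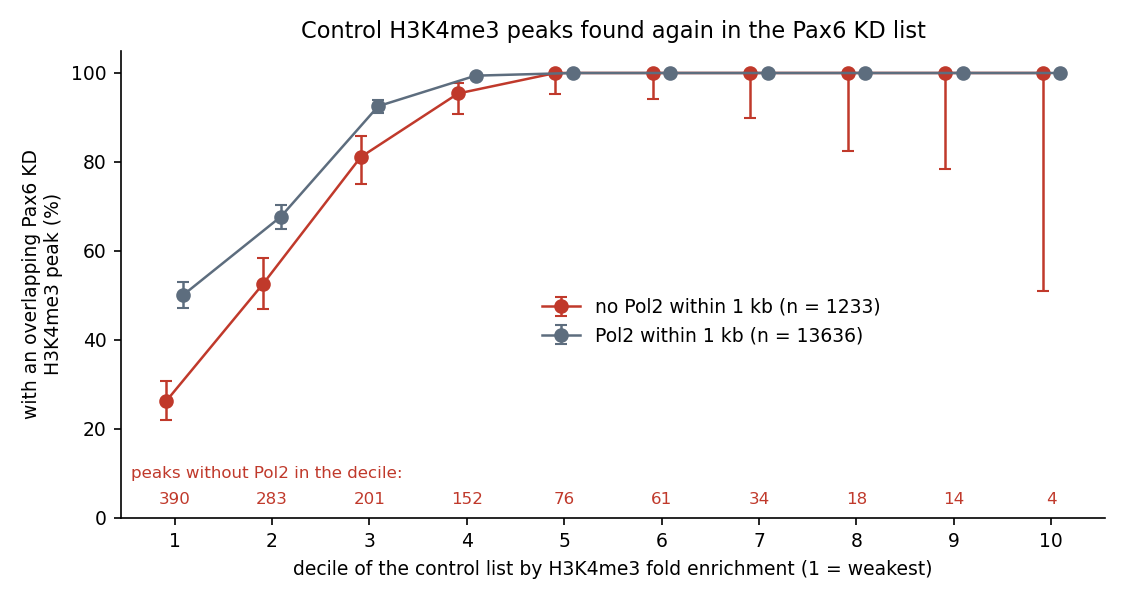
Share of control H3K4me3 peaks with an overlapping H3K4me3 peak in Pax6 KD cells (percent, vertical axis) by decile of fold enrichment in the control list (horizontal axis), without (red) and with (grey) Pol2 within 1 kb, with 95% Wilson intervals and the number of peaks without Pol2 below. In the first decile the shares are 26.2% and 50.1%, and from the fifth decile on both are 100%.

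The 766 peaks found again also stood lower in the KD list than in the control list. Their percentile by fold enrichment differed by a median of -5.21 points (KD minus control), against -1.73 points for peaks with Pol2. By quartile of control strength, from the weakest, the medians were -1.24, -9.22, -6.46 and -9.82 points without Pol2 and 0.651, -2.95, -1.89 and -2.00 points with Pol2. In every quartile the median without Pol2 was lower, by 1 library against 1. The control value sets the quartile and also enters the difference, and peaks without Pol2 came from a weaker set. Peaks grouped by an uncertain value of 1 library can fall back in any second library. Such a fall was not told apart from a change in KD cells. The KD percentile is that of the strongest overlapping KD peak, which neighbouring control peaks can share. Peaks with Pol2 had such neighbours more often in the first quartile, and isolated peaks were not compared for this measure. The spread was wide, with quartiles of -12.2 and 2.65 points over all 766. The strongest peaks that were not found in KD cells lay near Lrp3 (fold enrichment 13.6), at Hoxc8 (12.1), at AC144621.1 (11.7), at Abcg4, a sterol transporter gene (11.3), and at Gm2464 (10.9).

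H3K4me2 of newborn lens covered nearly all of the peaks, so most sites marked in the line without Pol2 were also marked in the tissue. It overlapped 1142 of the 1233 (92.6%, interval 91.0 to 94.0) against 98.7% of peaks with Pol2, a difference of -6.05 points (-7.65 to -4.70), and over all H3K4me3 peaks 1.84% lacked it. At protein-coding starts the shares were 96.5% and 99.1%, and far from starts 84.6% (80.3 to 88.2) and 93.9%. Among peaks with a fold enrichment over 10 they were 99.5% and 99.6%. The overlapping lens peaks stood high in their list, at a median percentile of 82.5, against 86.7 for peaks with Pol2. H3K4me2 of control αTN4 cells gave nearly the same picture, with 1146 peaks (92.9%, interval 91.4 to 94.2) against 98.9%, and 98.4% over all H3K4me3 peaks. In Pax6 KD cells H3K4me2 overlapped 92.5% of the peaks, including 405 of the 467 without an overlapping H3K4me3 peak there (86.7%).

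**Figure D5:**
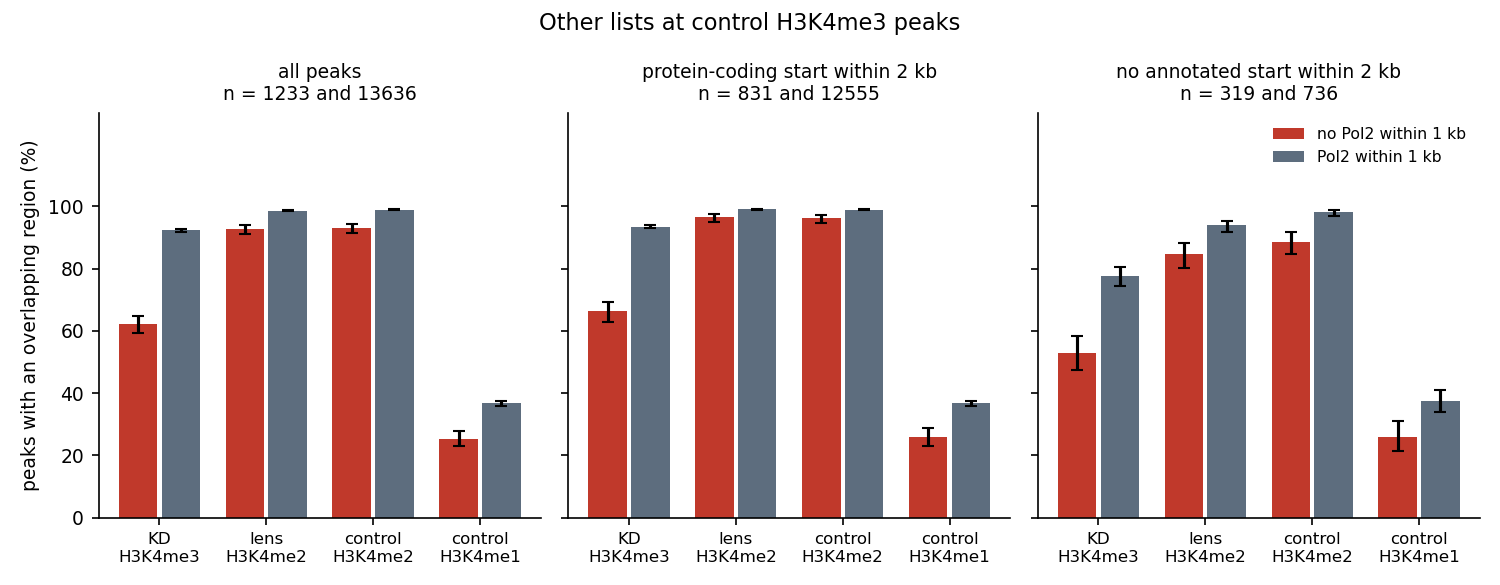
Share of control H3K4me3 peaks (percent, bars) with an overlapping region of KD H3K4me3, lens H3K4me2, control H3K4me2 or control H3K4me1, for peaks without (red) and with (grey) Pol2 within 1 kb, with 95% Wilson intervals. The left panel shows all peaks, the middle one peaks at protein-coding starts and the right one peaks with no annotated start within 2 kb; the difference is largest for KD H3K4me3, at 62.1% against 92.4% over all peaks.

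Both H3K4me2 lists overlapped 1095 of the peaks, 51 had H3K4me2 in control cells only, 47 in lens only and 40 in neither; of the 13636 peaks with Pol2, 139, 107 and 43 fell in the last 3 classes. The 51 marked in the line and not in lens had few CpG, with a median ratio of observed to expected CpG of 0.304 around the summit, and 29 of them were far from starts; the ratio in this class was 0.212 with Pol2. They included Hoxc8, a site near Cd274, an immune checkpoint ligand gene, and a site near Gem, a small GTPase gene. The 47 marked in lens only had a median CpG ratio of 0.773, and those with Pol2 0.914. The 40 with neither mark were weak and narrow, with medians of 5.67 in fold enrichment and 267 bp in width. The 43 with Pol2 in this class were narrow too, at 292 bp, with a median fold enrichment of 8.30. Of the 40, 7 overlapped an annotated pseudogene and 7 were found in KD H3K4me3 (17.5%), against 4 and 24 (55.8%) of the 43.

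H3K4me1 islands overlapped 313 of the peaks (25.4%, interval 23.0 to 27.9), against 36.8% of peaks with Pol2 and 35.9% of all H3K4me3 peaks. At protein-coding starts it was 25.9% and 36.8%, and far from starts 26.0% (21.5 to 31.1) and 37.4%. At equal strength the gap was not uniform. In the first quartile it was 27.6% and 31.0%, a difference of -3.37 points whose interval, -6.81 to 0.240, includes no difference, and at protein-coding starts of that quartile 27.6% and 28.5% (-5.14 to 3.52 points). In the second quartile the difference was -9.24 points (-13.4 to -4.35), in the third -10.7 points (-17.8 to -1.69), and in the fourth, with 27 peaks without Pol2, the order turned, at 59.3% and 54.5%, with an interval that includes no difference. Far from starts the first quartile had 29.8% and 42.1%, a difference of -12.3 points (-19.7 to -4.63). When an island had to cover at least 50% of a peak the order turned, with 19.7% of the narrower peaks without Pol2 and 11.5% of peaks with Pol2. In KD cells H3K4me1 overlapped 10.1% and 13.7%. Pax6 overlapped a single peak without Pol2, in an intron of Vcpip1, a deubiquitinase gene (chr1:9734614-9735084, fold enrichment 4.83), which stood at percentile 2.67 in the control and 20.1 in the KD list.

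CpG content separated places more than it separated peaks with and without Pol2. The ratio of observed to expected CpG in 300 bp around the summit had a median of 0.650 without and 0.670 with Pol2. It was 0.686 and 0.676 at protein-coding starts, and 0.526 and 0.552 far from starts. A summit was called island-like when GC was at least 50% and the CpG ratio at least 0.6, which was so for 615 peaks without Pol2 (49.9%, interval 47.1 to 52.7) and 56.3% with it. At protein-coding starts and at equal strength the order was the reverse. In the first quartile 50.3% of 493 such peaks without Pol2 were island-like against 33.9% with Pol2 (difference 16.4 points, 11.6 to 21.2), in the second 69.7% against 50.6% (19.1 points, 12.6 to 25.0), and in the third 78.6% against 64.6% (14.0 points, 3.97 to 21.6). In the fourth quartile, with 26 peaks without Pol2, it was 80.8% against 73.8%, with an interval that includes no difference (-11.8 to 17.8 points). Among isolated peaks at any place, for which both values had to exceed these limits, the difference in the first quartile was 8.14 points (2.79 to 13.5). Far from starts the shares were 25.7% and 34.2%.

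A small number of the peaks lay at copied sequence or at places with many control reads. An annotated pseudogene overlapped 24 (1.95%), against 0.557% of peaks with Pol2, among them Pgam1-ps2 and Gm13331, and whether reads were shared with the parent genes was not tested. Further, 14 peaks (1.14%, against 18 peaks with Pol2 or 0.132%) lay in H3K4me1 islands with over 50 reads per kb in the control library of the SICER list, from 156 to 1251 reads per kb, and had H3K4me3 fold enrichments of only 1.40 to 2.11. Of these 14, none overlapped KD H3K4me3 or control H3K4me2 (5 and 4 of the 18 with Pol2 did), and 12 overlapped lens H3K4me2, at lens fold enrichments of at most 1.37. They lay at Gm10800, Gm10801, Gm10717, Gm10718, Gm10722 and at 7 further places far from gene starts. Leaving them out moved the share found in KD cells to 62.8% and the share with lens H3K4me2 to 92.7%. The part of such regions in the other values was not tested.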

How the data were processed

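ChIP-seq of control αTN4 cells (H3K4me3, Pol2, Pax6, H3K4me2, H3K4me1), Pax6 KD cells (H3K4me1, H3K4me2, H3K4me3) and newborn lens (H3K4me2), with 1 library each, was analysed from lists of regions. For the lists, the authors mapped the reads onto mm9 by Bowtie and used MACS2 for peaks and SICER for H3K4me1 islands. Fold enrichment in the MACS2 lists is the ratio that the authors deposited, beside the −log10 of p and q. The SICER lists hold deposited read counts of the ChIP and control libraries, a fold over control, a p-value and a false discovery rate; the control library is not named in them. The RNA-seq libraries were not analysed here.

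Peaks with no Pol2 peak within 1 kb were selected. Overlap means at least 1 bp. Percentiles by fold enrichment were ranked within each list, and those of the control and KD H3K4me3 lists were then compared. Starts, gene types and sequence came from GENCODE vM1 and NCBIM37. Promoter windows and tRNA neighbours came from RefSeq tables of GRCm38.p6. Gene lists held symbols by name pattern. Named peaks are the 10 of highest fold enrichment at starts and far from them, the 10 widest, the strongest not found in KD, up to 4 per list, and those nearest the rule's limit; other sites were named after their values were seen. The peaks and lists were chosen with earlier results of these data known. Interval and overlap code was tested on simulated data. Alternatives covered the distance to Pol2, thresholds, the overlap that counts and the definition of a start. Read totals of the MACS2 libraries are unknown, so precision is given by counting intervals alone. Sequence was read with samtools 1.23.1 and pysam 0.24.0, tables with pandas 2.3.3 and NumPy 2.4.6 in Python 3.11.15, and plots were drawn with matplotlib 3.10.9. Some items are not reported here.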

Additional observations from a re-analysis of the deposited data

How the results depend on the processing

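The shares near starts, in KD H3K4me3, in lens H3K4me2 and in control H3K4me2, and the median width, stayed below those of peaks with Pol2 under every alternative run for them. For lens H3K4me2 over a fold enrichment of 10 the shares were nearly the same, at 99.5% and 99.6%. By quartile of fold enrichment, the lens share was lower without Pol2 only in the first, at 88.9% against 95.4%. When an absence of overlap with Pol2 sufficed, 2284 peaks were selected, of which 77.5% lay near a protein-coding start, 71.5% overlapped KD H3K4me3, 94.4% lens H3K4me2, 95.1% control H3K4me2 and 28.9% H3K4me1, with a median width of 526.5 bp. With no Pol2 within 5 kb, 71.2% lay near a start and 21.1% overlapped H3K4me1, the median width was 493.5 bp, and the CpG ratio, at 0.680 against 0.667, turned above that of the other peaks. With H3K4me3 peaks of −log10 q of at least 5, 65.6% overlapped KD H3K4me3 and the width was 495 bp. With at least 50% of a peak covered, 57.9% overlapped KD H3K4me3 and 19.7% H3K4me1, the latter now above the 11.5% of the other peaks. The share near a start was 74.1% for starts of all annotated transcripts, 60.8% within 1 kb and 76.9% within 5 kb. Restricted to a fold enrichment over 10, a choice made after the data were seen, 402 peaks were left; 78.1% lay near a start, 98.0% overlapped KD H3K4me3, 99.5% lens H3K4me2, 98.0% control H3K4me2 and 21.4% H3K4me1, the width was 781 bp and the CpG ratio, 0.709 against 0.697, again turned. A Pol2 threshold of −log10 q of at least 5, and leaving out either the 14 peaks with many control reads or the stretch of chromosome 13 (both chosen after the data were seen), moved none of these values beyond its counting interval. The stretch did move the share of far peaks with B box letters, from 10.7% to 5.78%, and that with tRNA neighbours, from 23.4% to 10.4%. No paired analysis was possible because each condition has 1 library. The lists give no read totals for the MACS2 libraries, so a region below a threshold in one list and above it in another was not told apart from a difference in depth.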
